A study of Mus musculus with 36 samples.

Results

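The 4 h step up to lights on was described in the liver of mice on a high fat diet. The step compares 6 of the 36 arrays of the series, the 3 labelled ZT0 and the 3 labelled ZT20 on that diet, chosen by their labels alone. All 36 arrays entered the gene filter and the fit that gave each standard error and p-value. Liver RNA of C57BL/6J mice aged 16 weeks was hybridised to whole-transcript Affymetrix arrays, with 3 samples for each of 2 diets and 6 harvest times. The mice had eaten either a diet with 60% of its calories from fat or normal chow for 10 weeks, freely available, under 12 h of light and 12 h of dark. ZT0 is lights on and ZT20 lies late in the dark phase. Sex, chow composition and the calendar order of the harvests were not stated in the labels. The labels number the samples without stating that each came from its own animal, so each p-value reflects only how these samples varied, which may be technical.

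The liver clock runs on a feedback loop in which CLOCK and ARNTL drive genes with E-box elements, among them the Per and Cry repressors, the REV-ERB receptors Nr1d1 and Nr1d2 and the factor Dbp. The REV-ERB receptors in turn repress Arntl through ROR elements, and DBP, TEF and HLF act on D-box elements of output genes. Mice eat mostly at night, and many liver transcripts of lipid and glucose metabolism follow both the clock and the feeding rhythm.

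Levels are log2(intensity + 16), differences are ZT0 minus ZT20 on that scale, and ± is the standard error of the limma fit. It compares 3 with 3 arrays, or for a difference between diets the steps of both diets. Its spread is pooled for each gene over all 36 arrays, so it does not measure the spread of the compared arrays alone. Array medians ran from 85.6 to 95.6 intensity units at ZT0 and from 80.1 to 84.2 at ZT20 on high fat diet, against 75.7 to 95.6 over all 36 arrays, with no overlap between the times. Over the genes tested the median levels did overlap, at 7.76 to 7.83 and 7.68 to 7.83. Arrays of a group correlated with r from 0.98 to 0.995. The 10 hepatocyte markers stood at a mean level of 12.70 to 12.78 in the ZT0 arrays and of 12.65 to 12.87 in the ZT20 arrays and 1 of them, the asialoglycoprotein receptor subunit Asgr1, was lower at ZT0 (-0.44 ± 0.09, adjusted p = 0.00463).

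Of 13956 genes tested, limma called 673 higher at ZT0 (4.82%) and 495 lower (3.55%) at a Benjamini-Hochberg adjusted p under 0.05. The steps were mostly small, with a median of 0.47 among the higher and -0.39 among the lower genes, and 31 genes were higher and 15 lower by at least 2-fold. The 3 ZT0 arrays did not overlap the 3 ZT20 arrays for 1122 of the 1168 called genes, against 3746 of all genes tested (26.8%). The balance of directions depended on how arrays were scaled. Quantile normalization gave 563 higher and 986 lower, and centring each array on its median gave 170 higher and 1128 lower, as the median step over all genes moved from 0.05 to -0.03 and -0.07. No gene called higher or lower was called in the opposite direction by either scaling, and 495 of the 495 lower genes but 170 of the 673 higher genes kept their call after centring. Without replicate 1 of ZT20 the count of higher genes was 128, without replicate 1 of ZT0 it was 224, without replicate 3 of ZT20 304 and without replicate 2 of ZT0 397. The count of lower genes was 249 without replicate 1 of ZT20, 250 without replicate 2 of ZT0, 265 without replicate 2 of ZT20 and 294 without replicate 1 of ZT0.

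The step was also a turning point of the day for most called genes. Of the 673 higher genes, 560 had their highest mean of the 6 times on high fat diet at ZT0 and 539 their lowest at ZT20. Among the 495 lower genes, 405 had their lowest mean at ZT0 and 332 their highest at ZT20. Genes were chosen for differing between these times, so these counts describe them and test nothing.

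**Figure D1:**
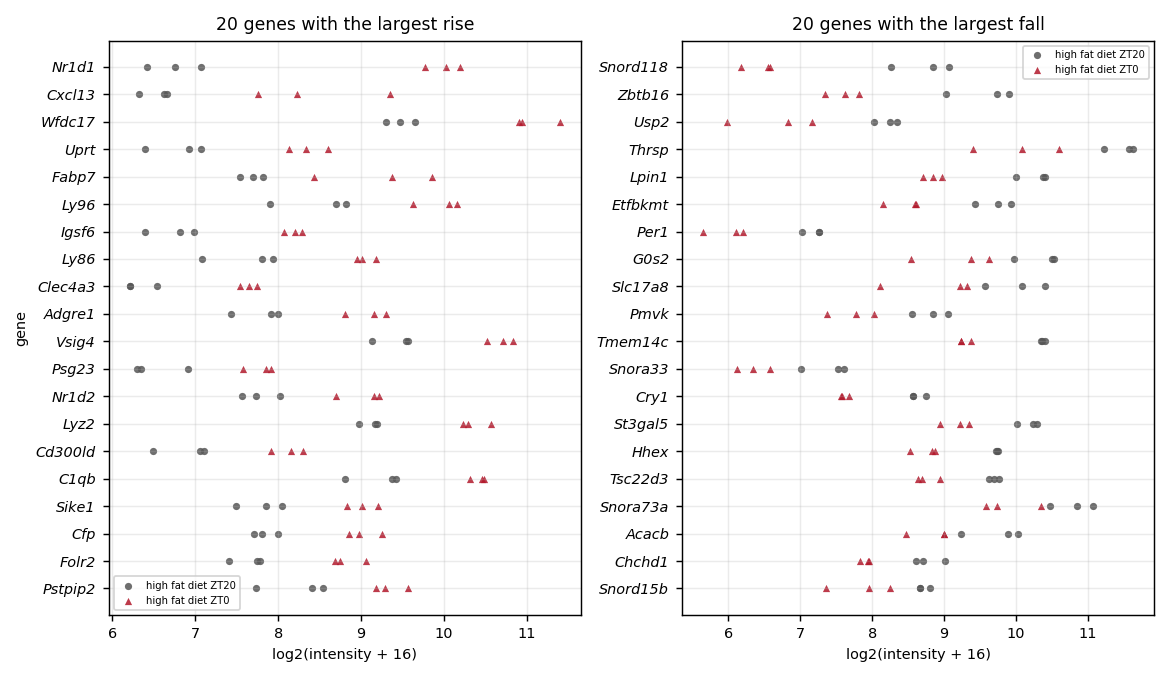
Level, log2(intensity + 16), of the 20 called genes with the largest rise and the 20 with the largest fall from ZT20 to ZT0 on high fat diet, among genes whose arrays did not overlap. Each point is 1 array, grey circles for ZT20 and red triangles for ZT0; Nr1d1 moved from between 6.42 and 7.07 to between 9.77 and 10.19.

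The REV-ERB receptors had the largest rises among the clock genes. Nr1d1, which encodes the heme-binding repressor REV-ERB alpha, stood at 6.42, 7.07 and 6.75 at ZT20 and at 10.03, 9.77 and 10.19 at ZT0. The groups lie far apart, and the step of 3.25 ± 0.26, a 9.48-fold rise (adjusted p = 3.40e-09), was the largest among all called genes. Its paralogue Nr1d2 read 7.74, 8.02 and 7.56 at ZT20 and 9.22, 8.70 and 9.16 at ZT0, again without overlap, a step of 1.25 ± 0.17 (2.38-fold, adjusted p = 6.42e-05). Over the day on high fat diet, the highest group mean of Nr1d1 was 10.67 at ZT4 and that of Nr1d2 10.25 at ZT8. The 6 other tested genes of this loop, out of 8, did not pass the test. Over all genes tested 4.82% were higher and 3.55% lower. The activator Arntl read 8.81, 9.15 and 8.97 at ZT20 and 8.90, 8.92 and 8.95 at ZT0, close to its daily high, with a step of -0.06 ± 0.20. Clock differed by 0.10 ± 0.10, Rora by -0.21 ± 0.10 (adjusted p = 0.191) and the E-box repressor Bhlhe40 by -0.50 ± 0.20 (adjusted p = 0.119).

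In the repressor list Per1, Cry1 and Usp2 were lower at ZT0 and no gene was higher, out of 10 tested. Shares over all genes tested were 3.55% lower and 4.82% higher. Per1 read 7.26, 7.26 and 7.03 at ZT20 and 6.21, 5.65 and 6.11 at ZT0, a fall by 1.19 on the log2 scale (± 0.21, adjusted p = 0.000977). Cry1, the late-phase repressor of the loop, fell from 8.56, 8.75 and 8.57 to 7.68, 7.56 and 7.58, by 1.02 (± 0.12, adjusted p = 2.06e-05). Usp2, a deubiquitinase whose transcript follows the clock, fell from 8.34, 8.24 and 8.03 to 7.16, 5.97 and 6.83, by 1.55 (± 0.21, adjusted p = 6.42e-05). In all 3 genes each ZT0 array lay below each ZT20 array. The other 7 tested genes of the repressor list did not pass, among them Per2 (-0.38 ± 0.13, adjusted p = 0.0687), Per3 (-0.20 ± 0.14), Cry2 (-0.09 ± 0.11) and Ciart (-0.09 ± 0.28).

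Among 19 tested D-box factors and clock outputs, 1 was higher and 7 were lower at ZT0, against 4.82% and 3.55% of all genes tested. The higher gene was Dbp, at 6.51, 6.60 and 6.74 at ZT20 and at 7.25, 7.18 and 7.50 at ZT0, a step of 0.70 ± 0.17 (adjusted p = 0.0114) that did not pass without replicate 1 of ZT20 (0.64, adjusted p = 0.0626). The other D-box factors of the list gave -0.28 ± 0.13 (Tef, adjusted p = 0.176) and 0.03 ± 0.10 (Hlf). Lower outputs included Tsc22d3, the glucocorticoid-induced leucine zipper, which moved from 9.70, 9.76 and 9.63 to 8.63, 8.70 and 8.94 (-0.94 ± 0.14, adjusted p = 0.000292). The tetraspanin Tspan4 (-0.71 ± 0.10, adjusted p = 0.000142), Marveld1 (-0.60 ± 0.10), the NAD salvage enzyme Nampt (-0.49 ± 0.12), the uridine phosphorylase Upp2 (-0.43 ± 0.13), the deadenylase Noct (-0.89 ± 0.27, adjusted p = 0.0348) and the lipid transporter Mfsd2a (-1.43 ± 0.43, adjusted p = 0.0359) were the other 6. Calls that did not hold without 1 array, given in brackets with the highest adjusted p reached, were those of Noct (ZT0 replicate 2 or 3 or ZT20 replicate 1 or 2, up to 0.165), Mfsd2a (ZT0 replicate 2 or 3 or ZT20 replicate 1 or 3, up to 0.274), Nampt (ZT0 replicate 2 or ZT20 replicate 3, up to 0.0774) and Upp2 (ZT0 replicate 1 or 2 or ZT20 replicate 1 or 2, up to 0.202). The list's lower count was 3 without replicate 2 of ZT0 and 4 without replicate 1 of ZT20. Mfsd2a arrays overlapped, since ZT0 held 11.08, 9.65 and 8.11 and ZT20 held 11.16, 10.79 and 11.19. The other 11 tested members did not pass.

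**Figure D2:**
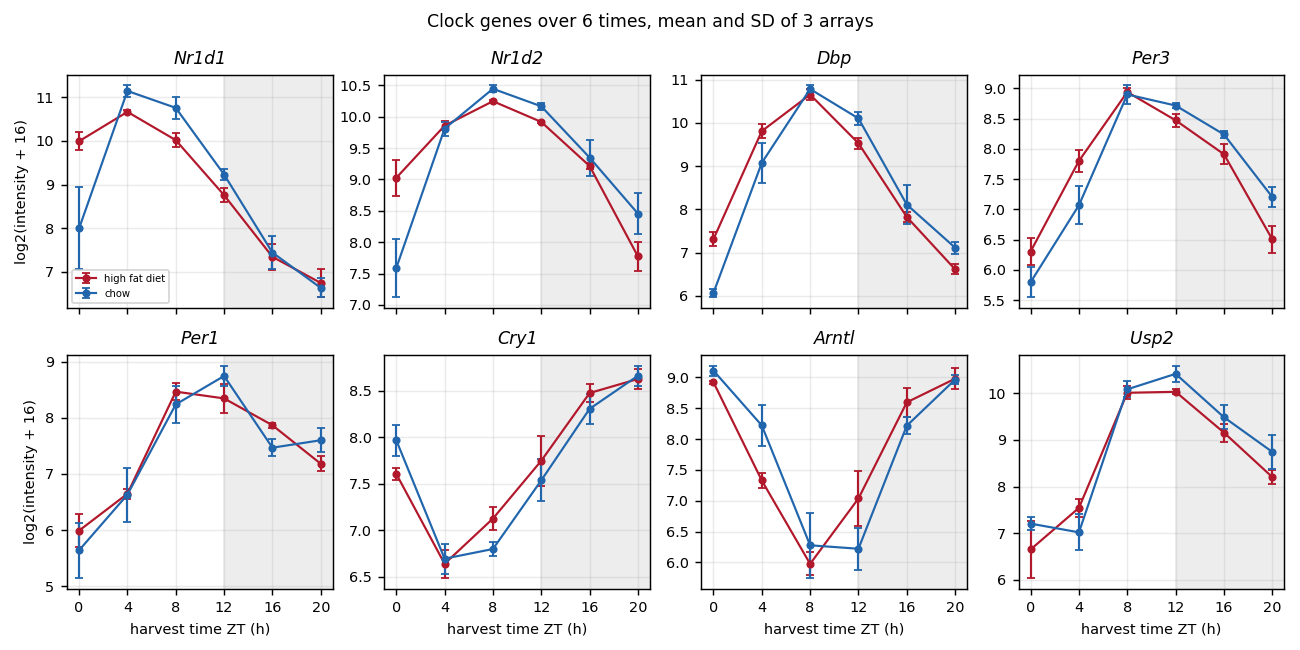
Level of 8 clock genes at 6 harvest times on high fat diet (red) and chow (blue), as mean and SD of 3 arrays, with the dark phase shaded. Nr1d2 went from 7.77 at ZT20 to 9.02 at ZT0 on high fat diet and from 8.46 to 7.59 on chow, while Arntl differed by -0.06 and 0.15.

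The upstream sequence of 6 clock-list genes whose step or diet difference was called is shown because each holds an E-box, E'-box or D-box motif within 250 bases before its RefSeq start (GRCm38.p6). Capitals mark the motif, searched on both strands as CACGTG (E-box), CACGTT (E'-box) and TTATGTAA or TTACGTAA (D-box); AACGTG is CACGTT read on the other strand.
Nr1d1 (chr11:98775378-98775627, minus strand): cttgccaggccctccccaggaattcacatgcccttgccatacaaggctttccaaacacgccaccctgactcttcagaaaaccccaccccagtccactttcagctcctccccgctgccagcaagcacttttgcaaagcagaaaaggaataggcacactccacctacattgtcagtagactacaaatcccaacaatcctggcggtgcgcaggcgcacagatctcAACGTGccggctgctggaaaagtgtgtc
Per1 (chr11:69098699-69098948, plus strand): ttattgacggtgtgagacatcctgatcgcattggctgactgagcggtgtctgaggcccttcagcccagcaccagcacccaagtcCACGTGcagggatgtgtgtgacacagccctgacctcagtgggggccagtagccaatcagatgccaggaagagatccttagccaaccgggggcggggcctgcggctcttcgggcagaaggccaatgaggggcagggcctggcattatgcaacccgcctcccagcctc
Cry1 (chr10:85185055-85185304, minus strand): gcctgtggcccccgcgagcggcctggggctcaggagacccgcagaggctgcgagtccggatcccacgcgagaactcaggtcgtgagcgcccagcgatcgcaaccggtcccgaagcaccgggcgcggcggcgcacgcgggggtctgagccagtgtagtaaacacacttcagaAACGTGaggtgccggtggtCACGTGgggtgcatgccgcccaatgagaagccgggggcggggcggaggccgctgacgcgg
Per3 (chr4:151044666-151044915, minus strand): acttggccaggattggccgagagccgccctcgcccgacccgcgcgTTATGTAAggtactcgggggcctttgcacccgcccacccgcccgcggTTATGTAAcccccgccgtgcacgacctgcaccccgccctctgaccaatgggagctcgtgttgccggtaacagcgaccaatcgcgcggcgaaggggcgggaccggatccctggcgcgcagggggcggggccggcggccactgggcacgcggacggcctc
Tspan4 (chr7:141476130-141476379, plus strand): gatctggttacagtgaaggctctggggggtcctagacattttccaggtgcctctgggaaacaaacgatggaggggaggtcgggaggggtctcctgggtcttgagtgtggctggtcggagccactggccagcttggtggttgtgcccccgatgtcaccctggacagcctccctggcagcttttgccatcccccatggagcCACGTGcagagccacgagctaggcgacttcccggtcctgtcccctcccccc
Mfsd2a (chr4:122961189-122961438, minus strand): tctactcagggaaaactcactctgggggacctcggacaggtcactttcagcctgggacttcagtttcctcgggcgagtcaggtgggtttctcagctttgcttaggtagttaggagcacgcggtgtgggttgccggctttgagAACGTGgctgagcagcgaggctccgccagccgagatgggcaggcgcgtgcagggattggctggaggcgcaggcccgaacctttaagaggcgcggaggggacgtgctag
The E'-box of Nr1d1 began 28 bases before its start, the E-box of Per1 166 bases and that of Tspan4 51 bases before. Cry1 held an E-box 60 bases and an E'-box 79 bases before its start, and Per3 a pair of D-boxes at 205 and 158 bases. An E-box was in 6.02% of all 32851 promoter windows of this length, in 8% of windows of genes tested, in 5.68% of those called higher and in 9.8% of those called lower. The E'-box was in 3.85%, 4.09%, 5.23% and 4.29% of the same sets, and the D-box in 0.931%, 0.736%, 0.747% and 0.612%. These matches describe the letters in the windows; genes of opposite direction, such as Nr1d1 and Cry1, hold the same E'-box letters.

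Markers of macrophages were among the higher genes. Of the 15 Kupffer cell and macrophage markers that passed the intensity filter, out of 19 listed, 8 were higher at ZT0 and 0 lower, with a median step of 0.81 against 0.05 over all genes. All 15 had a positive step, from 0.10 (Trem2, which turned to -0.02 under quantile normalization or median centring) to 1.31 (Adgre1), and the arrays of 12 did not overlap. Over all genes tested 4.82% were higher, and the arrays of 26.8% did not overlap in either direction. Of the 13277 protein-coding genes tested, 7949 had a positive step. In bulk liver RNA more cells of a type and more RNA per cell cannot be told apart. Adgre1, the F4/80 antigen, read 7.43, 8.00 and 7.91 at ZT20 and 8.80, 9.30 and 9.16 at ZT0 (1.31 ± 0.26, adjusted p = 0.00320). Timd4, a phosphatidylserine receptor of resident Kupffer cells, read 6.79, 7.12 and 6.96 and then 7.59, 8.25 and 8.11 (1.03 ± 0.22, adjusted p = 0.00463). Lyz2, the myeloid lysozyme, read 8.97, 9.20 and 9.16 and then 10.29, 10.56 and 10.23 (1.25 ± 0.28, adjusted p = 0.00709). In these 3 genes each ZT0 array lay above each ZT20 array, and the calls of all 3 held without any single array of the step.

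The other called markers were the complement receptor Vsig4 (1.27 ± 0.36), the complement component C1qb (1.22 ± 0.30), Cd68 (0.83 ± 0.25), Cd5l (0.83 ± 0.25) and the growth factor receptor Csf1r (0.80 ± 0.21). Leaving out 1 array ended each of these 5 calls, namely Vsig4 (any ZT0 array or ZT20 replicate 1, up to 0.114), C1qb (ZT20 replicate 1, 0.0895), Cd68 (any of the 6, up to 0.151), Cd5l (any of the 6, up to 0.116) and Csf1r (ZT0 replicate 3 or ZT20 replicate 1, up to 0.0981). Without replicate 1 of ZT20 3 of the 15 markers passed, and without any other single array of the step 4 to 6. C1qc missed the threshold (0.81 ± 0.27, adjusted p = 0.0540), and Clec4f (0.33 ± 0.18), Marco (0.33 ± 0.15), Mpeg1 (0.36 ± 0.18), C1qa (0.34 ± 0.16), Cd163 (0.19 ± 0.25) and Trem2 did not pass. Quantile normalization called 9 of the 15 higher and median centring 6.

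The mean level of the 15 markers was 8.82, 8.95 and 9.05 in the ZT0 arrays and 8.04, 8.29 and 8.29 in the ZT20 arrays. Group means at the other times on high fat diet ran from 8.43 at ZT4 to 8.48 at ZT8, so the ZT0 group was the highest of the day. On chow the same mean was 8.06 at ZT20 (arrays from 8.019 to 8.076) and 8.23 at ZT0 (8.182 to 8.255), also without overlap. In that step 0 of the 15 markers passed (median 0.22), where 4.95% of all genes tested were higher. The test of the difference between the diets passed for 0 of the 15, with a median difference of 0.58. No marker of the other cell types passed, namely sinusoidal endothelium (15 tested, median 0.25), stellate cell and matrix (15, 0.01), bile duct (3, 0.13), T, NK and B cell (7, 0.19), neutrophil (4, 0.28), red blood cell (2, 0.11), adipose tissue (7, 0.07), skeletal and smooth muscle (6, 0.07) and exocrine pancreas and gut (6, 0.00). The mean level of the 15 endothelial markers was 9.14 to 9.24 in the ZT0 arrays and 8.90 to 9.03 in the ZT20 arrays, without overlap. Of these 15, 12 had a positive step, as did 7949 of the 13277 protein-coding genes tested. The mean of the 7 T, NK and B cell markers was 7.003 to 7.17 against 6.84 to 6.99, again without overlap.

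**Figure D3:**
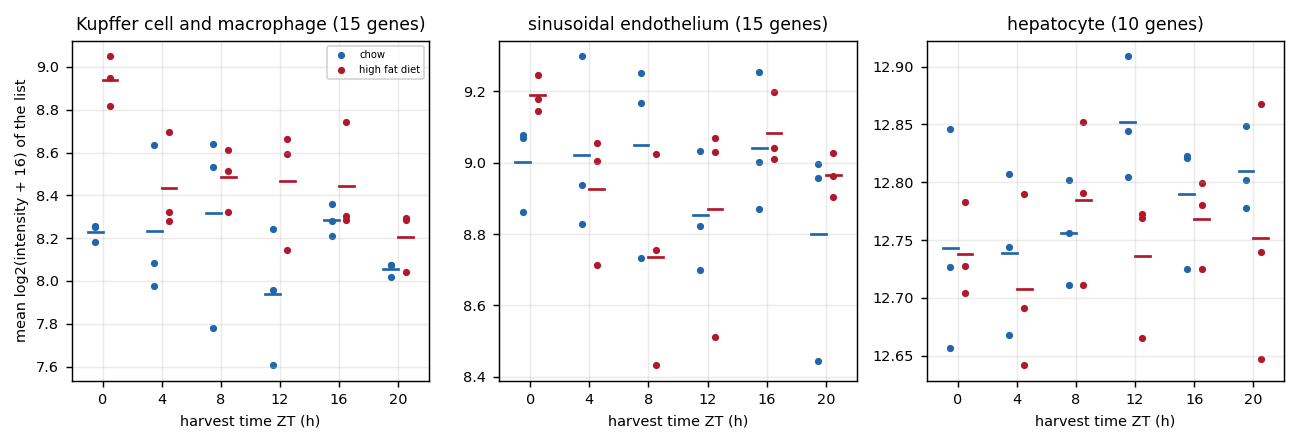
Mean log2(intensity + 16) of the tested markers of Kupffer cells and macrophages, sinusoidal endothelium and hepatocytes in each of the 36 arrays by harvest time, with a line at each group mean. The 3 high fat diet arrays at ZT0 hold macrophage means from 8.82 to 9.05, above every other array.

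Of the 20 largest rises without overlap, 4 were called markers of the macrophage list (Adgre1, Vsig4, Lyz2 and C1qb). Cxcl13, a B cell chemokine, read 6.63, 6.66 and 6.32 at ZT20 and 7.76, 9.35 and 8.23 at ZT0 (1.91 ± 0.39, 3.75-fold, adjusted p = 0.00377). The ZT0 arrays spread widely but all lay above ZT20. The endotoxin coreceptor Ly96 (1.47 ± 0.30), its relative Ly86 (1.44 ± 0.37), Igsf6 (1.45 ± 0.32), the lectin Clec4a3 (1.32 ± 0.27), the folate receptor Folr2 (1.19 ± 0.30), properdin Cfp (1.19 ± 0.23), Cd300ld (1.24 ± 0.33), Pstpip2 (1.11 ± 0.28), the fatty acid binding protein Fabp7 (1.54 ± 0.37) and Wfdc17 (1.61 ± 0.41) were higher as well. Leaving out 1 array ended the calls of Ly86 (ZT0 replicate 2 or ZT20 replicate 1, up to 0.102), Folr2 (ZT0 replicate 3 or ZT20 replicate 1, up to 0.0826), Cd300ld (ZT0 replicate 1 or 3 or ZT20 replicate 1, up to 0.111), Pstpip2 (ZT0 replicate 2 or ZT20 replicate 1, up to 0.108), Fabp7 (ZT0 replicate 3 or ZT20 replicate 1, up to 0.0601) and Wfdc17 (ZT0 replicate 2 or ZT20 replicate 1, up to 0.0698). Further large rises were those of Uprt, a uracil phosphoribosyltransferase homologue (1.56 ± 0.36), the kinase regulator Sike1 (1.21 ± 0.24) and Psg23 (1.26 ± 0.22). Uprt lost its call without replicate 1 of ZT20 (1.36, adjusted p = 0.0615).

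The largest fall of a protein-coding gene was that of Zbtb16, a zinc finger factor induced by glucocorticoids, from 9.90, 9.74 and 9.02 at ZT20 to 7.34, 7.62 and 7.82 at ZT0. Its step was -1.96 ± 0.29, a 3.90-fold fall (adjusted p = 0.000161), with no overlap. Of 23 tested genes of the glucocorticoid receptor and its targets, 5 were lower and 1 higher at ZT0, with a median step of -0.16. Shares over all genes tested were 3.55% lower and 4.82% higher. The lower genes were Zbtb16, Tsc22d3, Per1, the phosphatidate phosphatase Lpin1 and the immunophilin Fkbp5 (7.35, 7.72 and 7.50 against 6.79, 6.85 and 6.997, -0.65 ± 0.15, adjusted p = 0.00970). Tdo2, which opens tryptophan breakdown, was the higher gene (0.27, adjusted p = 0.0426), a call that did not hold without any ZT0 array or replicate 1 or 3 of ZT20 (adjusted p up to 0.174) nor under quantile normalization or median centring. On chow 8 of the 23 were lower and 0 higher, against 1.54% lower and 4.95% higher among all genes tested on that diet. Per1, Tsc22d3 and Lpin1 also stand in other lists, so their counts overlap.

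Several genes of lipid synthesis and storage were lower. Thrsp, a promoter of lipogenesis, fell from 11.22, 11.57 and 11.62 to 10.59, 10.08 and 9.40 (-1.45 ± 0.20, adjusted p = 6.42e-05). Lpin1 fell from 10.40, 10.37 and 10.01 to 8.97, 8.84 and 8.70 (-1.42 ± 0.24, adjusted p = 0.000792). Both genes were separated without overlap. Of 29 tested genes of fatty acid and triglyceride synthesis, 5 were lower, with the acetyl-CoA carboxylase Acacb (-0.90 ± 0.23), Lpin2 (-0.41 ± 0.12) and the citrate lyase Acly (-0.56, adjusted p = 0.0423) beside these, and the elongase Elovl1 was higher (0.34 ± 0.10). Of 19 lipid droplet and lipolysis genes 3 were lower and 2 higher. For both lists the shares over all genes tested were 3.55% lower and 4.82% higher. The lipolysis inhibitor G0s2 read 10.50, 9.97 and 10.53 at ZT20 and 9.63, 9.37 and 8.54 at ZT0 (-1.15 ± 0.31, adjusted p = 0.0218), and the droplet coat protein Plin5 9.01, 8.94 and 9.01 and then 8.67, 8.32 and 7.99 (-0.66 ± 0.11, adjusted p = 0.000795). Lipoprotein lipase Lpl was higher (0.77 ± 0.20), as was Cideb (0.39 ± 0.09). Calls lost without 1 array were those of Acacb (ZT0 replicate 3 or ZT20 replicate 2 or 3, up to 0.0763), Lpin2 (ZT0 replicate 2 or 3 or any ZT20 array, up to 0.159), Acly (any ZT0 array or ZT20 replicate 2 or 3, up to 0.152), Elovl1 (ZT0 replicate 1 or 2 or ZT20 replicate 1, up to 0.173), G0s2 (ZT0 replicate 3 or ZT20 replicate 1 or 3, up to 0.117), Lpl (ZT0 replicate 3 or ZT20 replicate 1 or 3, up to 0.0874) and Cideb (ZT0 replicate 1, 0.0726). The lower count of the synthesis list was 2 without replicate 3 of ZT0 or replicate 2 or 3 of ZT20 and 3 without replicate 2 of ZT0, and that of the droplet list 1 without replicate 3 of ZT0 or replicate 1 or 3 of ZT20 and 5 without replicate 1 of ZT0.

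Of 21 cholesterol synthesis genes 1 was higher and 1 lower, against 4.82% and 3.55% of all genes tested. Mevalonate kinase Mvk was higher (0.45 ± 0.14) and Pmvk, the kinase that follows it, was lower, from 8.55, 9.05 and 8.85 to 7.38, 8.02 and 7.78 (-1.09 ± 0.19, adjusted p = 0.000977). In the list of bile acid synthesis and transport, 3 of 30 were higher and 4 lower. Cyp7a1, which sets the pace of the classic bile acid pathway, read 11.02, 11.17 and 11.23 at ZT20 and 10.32, 10.43 and 10.57 at ZT0, with no overlap (-0.70 ± 0.16, adjusted p = 0.00718). Cyp39a1 (-0.80 ± 0.22) and Ces1d (-0.67 ± 0.13) were lower, while the racemase Amacr (0.39 ± 0.09) was higher. The adjusted p rose above the threshold without 1 array for Mvk (ZT0 replicate 2 or 3 or ZT20 replicate 1 or 3, up to 0.178) and Cyp39a1 (ZT0 replicate 2 or 3 or ZT20 replicate 1 or 3, up to 0.147). The counts of the bile acid list were 1 and 2 without replicate 3 of ZT0 or replicate 1 of ZT20. Its higher count was 1 whichever array of the step was left out. Median centring gave 0 higher and 8 lower of the 30, and quantile normalization 2 and 8. Amacr did not pass after median centring or in a fit to the step's arrays alone. For cholesterol synthesis median centring gave 0 higher and 1 lower.

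Some subunits of large assemblies were lower by small amounts. Of 44 oxidative phosphorylation subunits 11 were lower and 1 higher, with a median of -0.13, against 3.55% and 4.82% of all genes tested. The complex I subunits Ndufa5 (8.67, 8.68 and 8.70 against 8.01, 7.82 and 8.06, -0.72 ± 0.13) and Ndufa4 (-0.69 ± 0.11) and the cytochrome oxidase subunit Cox5a (-0.52 ± 0.09, adjusted p = 0.000649) led, and Cox7b was the higher gene (0.39). Of 31 proteasome subunits 10 were lower and 2 higher (median -0.15), with Psmb4 at -0.53 ± 0.12 and Psmc5 at -0.40 ± 0.09, while Psmb5 (0.44) and Psmd14 (0.43) were higher. Of 34 ribosomal protein genes 9 were lower and 1, Rpl14, higher (median -0.12); Rps3 differed by -0.52 ± 0.10 and Rps9 by -0.53 ± 0.13. Near-identical pseudogene copies of ribosomal genes can share signal, so these values are uncertain gene by gene. Leaving out 1 array changed the lower counts to between 7 and 10 for oxidative phosphorylation, 3 and 9 for the proteasome and 1 and 11 for ribosomal proteins. Each lowest count came without replicate 1 of ZT0, where the adjusted p of Psmb4 was 0.0519 and that of Rps9 0.0683. The 4 higher calls did not hold after median centring, nor without 1 array for Cox7b (ZT0 replicate 1 or 2 or ZT20 replicate 1 or 3, up to 0.16), Psmb5 (ZT0 replicate 1 or 2 or any ZT20 array, up to 0.164), Psmd14 (any ZT0 array or ZT20 replicate 1 or 2, up to 0.124) and Rpl14 (any ZT0 array or ZT20 replicate 1 or 3, up to 0.175).

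Some enzymes of fuel use were lower, where 3.55% of all genes tested were lower and 4.82% higher. Of 37 tested genes of fatty acid oxidation and ketone bodies 8 were lower and 0 higher (median -0.11), among them the acyl-CoA dehydrogenases Acadvl (-0.42 ± 0.08, adjusted p = 0.00225), Acadl (-0.49 ± 0.11) and Acads (-0.42 ± 0.11) and the flavoprotein subunit Etfa (-0.37 ± 0.10). Of 21 gluconeogenesis and fuel switch genes 5 were lower and 0 higher, led by the glucose-6-phosphate transporter Slc37a4 (10.94, 11.08 and 11.11 against 10.58, 10.53 and 10.44, -0.52 ± 0.08, adjusted p = 0.000501) and the alanine aminotransferase Gpt (-0.51 ± 0.11). Of 27 glycolysis and glycogen genes 3 were lower and 2 higher; the glycogen-targeting subunit Ppp1r3b fell by 0.69 on the log2 scale (± 0.16) and the phosphorylase Pygl by 0.39 (± 0.07), while glycogenin Gyg was higher (0.52 ± 0.14). Single arrays also decided the calls of Acads (ZT0 replicate 3 or ZT20 replicate 1, up to 0.0921), Etfa (ZT0 replicate 1 or ZT20 replicate 1 or 2, up to 0.075) and Gyg (ZT0 replicate 1 or ZT20 replicate 1 or 3, up to 0.149). The count of lower fatty acid oxidation genes was 2 without replicate 1 of ZT20, 4 without replicate 3 of either time and 5 without replicate 2 of either time, and that of gluconeogenesis genes was 2 without replicate 3 of ZT0 and 3 without replicate 2 of ZT20. Stbd1, which tethers glycogen to membranes and stood in the list of ATF4 genes, fell from 8.33, 8.35 and 8.42 to 7.42, 7.70 and 7.59 (-0.80 ± 0.11, adjusted p = 8.91e-05).

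Among 38 amino acid catabolism and urea cycle genes 4 were lower and 3 higher, against 3.55% and 4.82% of all genes tested. The urea cycle enzyme Asl read 11.72, 11.72 and 11.52 at ZT20 and between 10.92 and 11.01 at ZT0 (-0.68 ± 0.08, adjusted p = 2.63e-05). Proline dehydrogenase Prodh read 10.74, 10.70 and 10.51 and then 10.02, 9.89 and 9.88 (-0.72 ± 0.10, adjusted p = 6.42e-05). Neither gene's arrays overlapped. In the list of NAD synthesis and use 5 of 23 were lower, among them the mitochondrial deacetylase Sirt3 (-0.51 ± 0.12) and the NAD kinase Nadk (-0.34 ± 0.07), and 4 were higher, led by Nmnat1 (0.90, adjusted p = 0.0157). Sirt3 gave an adjusted p of 0.0561 without replicate 1 of ZT20, and Nmnat1 0.0992 and 0.0885 without replicate 1 of ZT0 and of ZT20. Without replicate 1 of ZT0 or replicate 1 of ZT20 0 genes of either list were higher. Quantile normalization and median centring each gave 0 higher amino acid and urea cycle genes. They gave 2 and 1 higher genes of the NAD list.

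Endoplasmic reticulum chaperones and unfolded protein response genes included 8 higher genes, where 4.82% of all genes tested were higher. Of 35 tested, 8 were higher and 0 lower, 32 had a positive step and the median was 0.22 against 0.05 over all genes. A positive step was found in 7949 of the 13277 protein-coding genes tested. Dnajb9, a cochaperone of BiP, read 9.98, 10.54 and 10.45 at ZT20 and 11.03, 11.30 and 11.04 at ZT0 (0.80 ± 0.15, adjusted p = 0.00147). Ssr3, a subunit of the translocon-associated complex, read 10.65, 10.68 and 10.72 and then 11.23, 11.23 and 11.22 (0.55 ± 0.12, adjusted p = 0.00488). The groups did not overlap in either gene. Hsp90b1, the chaperone GRP94 (0.45 ± 0.09), the channel subunit Sec61a1 (0.45 ± 0.10), Pdia4 (0.38 ± 0.09), Sdf2l1 (0.95), Ero1b (0.50) and Edem1 (0.26) completed the 8. On chow 11 of the 35 were higher and 0 lower with a median of 0.22, and 0 differed between the diets. Among all genes tested on chow 4.95% were higher and 1.54% lower. Median centring left 3 of the 35 called higher, and 4 were left without replicate 2 of ZT0 or replicate 1 of ZT20, where Pdia4 gave an adjusted p of 0.0722 and 0.0530, and 5 without replicate 3 of either time. Single arrays ended the calls of Sdf2l1 (ZT0 replicate 2 or 3 or any ZT20 array, up to 0.142), Ero1b (ZT0 replicate 2 or 3 or ZT20 replicate 1 or 3, up to 0.0965) and Edem1 (any ZT0 array or ZT20 replicate 1 or 3, up to 0.144). The UPR element TGACGTGG was in 0.598% of the windows of genes called higher and in 0.665% of those of genes tested.

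Interferon-stimulated genes were higher in 6 of 21 and lower in 0 (median 0.22), against 4.82% and 3.55% of all genes tested. Usp18, which restrains interferon signalling, read 7.91, 8.04 and 8.28 at ZT20 and 9.11, 8.54 and 9.03 at ZT0 (0.82 ± 0.14, adjusted p = 0.00106), and Rsad2, Gbp7, Irf9, Xaf1 and Mx2 gave steps from 0.39 to 0.80. Without replicate 1 of ZT20 or replicate 1 of ZT0, 1 of the 21 passed, and 4 without replicate 3 of ZT0; the calls that ended were those of Rsad2 (ZT0 replicate 1 or ZT20 replicate 1, up to 0.125), Gbp7 (ZT0 replicate 1 or ZT20 replicate 1, up to 0.149), Irf9 (ZT0 replicate 1 or ZT20 replicate 1, up to 0.13), Xaf1 (ZT0 replicate 1 or 3 or ZT20 replicate 1, up to 0.212) and Mx2 (ZT0 replicate 1 or 3 or ZT20 replicate 1 or 3, up to 0.249). Of 27 cell cycle genes 4 were higher and 0 lower (median 0.12), namely Ccna2 (0.85 ± 0.22), Rfc4 (0.68 ± 0.22), Ccnb2 (0.63 ± 0.19) and Ccnd1 (0.59 ± 0.17). ZT0 replicate 1 read 8.31 for Ccna2 against 6.78 and 7.08 in the other ZT0 arrays and 8.96 for Ccnb2 against 7.75 and 7.86, and without that array or replicate 1 of ZT20 0 of the 27 passed, Ccna2 giving 0.39 without the former (adjusted p = 0.160). Without replicate 2 of ZT20 1 passed, and without replicate 3 of either time 2. Quantile normalization called 2 of the 27 higher (median 0.007) and median centring 1 (median 0.002). Of the 21 interferon-stimulated genes, quantile normalization called 5 higher and 0 lower, and median centring 2 higher and 1 lower. The macrophage markers moved with both groups (8 of 15 higher, means 8.82 to 9.05 against 8.04 to 8.29), and their part in these rises was not tested.

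Of 31 NRF2 and glutathione genes 4 were higher and 2 lower, against 4.82% and 3.55% of all genes tested. Median centring gave 1 higher and 4 lower. The heme oxygenase Hmox1, which macrophages also express, was higher (0.65 ± 0.17), as were the glutathione transferases Gstm2 (0.71 ± 0.17), Gstm4 (0.47 ± 0.14) and Gstm1 (0.38); these 3 have similar sequences and may share signal. The lipid peroxide reductase Gpx4 (-0.49 ± 0.11) and the NRF2 inhibitor Keap1 (-0.38 ± 0.10) were lower. Calls ended without 1 array for Hmox1 (ZT0 replicate 2 or ZT20 replicate 1, up to 0.106), Gstm2 (ZT0 replicate 1 or ZT20 replicate 1, up to 0.116), Gstm4 (ZT0 replicate 1 or 2 or ZT20 replicate 1 or 2, up to 0.251), Gstm1 (ZT0 replicate 1 or 2 or any ZT20 array, up to 0.22) and Keap1 (ZT0 replicate 1 or 2 or ZT20 replicate 1 or 2, up to 0.0651). The higher count was 0 without replicate 1 of ZT20, 1 without replicate 1 or 2 of ZT0 and 2 without replicate 2 of ZT20. The macrophage markers rose beside Hmox1, and their part in its rise was not tested.

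The remaining lists held few called genes. Higher and lower counts were 2 and 2 of 28 heat shock chaperones, 0 and 1 of 6 cold-inducible RNA-binding proteins, 1 and 0 of 27 insulin signalling and FOXO targets, and 1 and 0 of 31 immediate early and SRF targets. They were 2 and 1 of 23 ATF4 and integrated stress response genes, 1 and 4 of 48 ribosome biogenesis factors, 2 and 1 of 25 CAR and PXR targets, and 0 and 2 of 23 one-carbon and methionine cycle genes. Acute phase proteins gave 1 and 1 of 28, the growth hormone axis and sex-biased genes 1 and 0 of 24, autophagy and lysosome 1 and 3 of 30, and lipoprotein metabolism 0 and 1 of 23. Coagulation and complement gave 1 and 2 of 30, purine and pyrimidine metabolism 2 and 1 of 30, and iron and metallothionein genes 3 and 2 of 24. Against the 4.82% higher and 3.55% lower among all genes these shares rest on few genes each. Among them Apoa5, an activator of triglyceride clearance, was lower on each diet (-0.50 ± 0.10 and -0.50), and the mitophagy receptor Bnip3 likewise (-0.48 ± 0.08 and -0.45). Ctsd, Il6ra and Ahsa1 were lower (-0.26, -0.64 and -0.37), and Cyp2c55 and Cp were higher (0.64 and 0.37), but these 5 calls did not hold without 1 array, namely Ctsd (ZT0 replicate 2 or 3 or ZT20 replicate 3, up to 0.0993), Il6ra (ZT0 replicate 2, 0.0683), Ahsa1 (ZT0 replicate 1, 0.0653), Cyp2c55 (ZT0 replicate 1 or 2 or ZT20 replicate 1, up to 0.116) and Cp (ZT20 replicate 1 or 3, up to 0.0709).

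**Figure D4:**
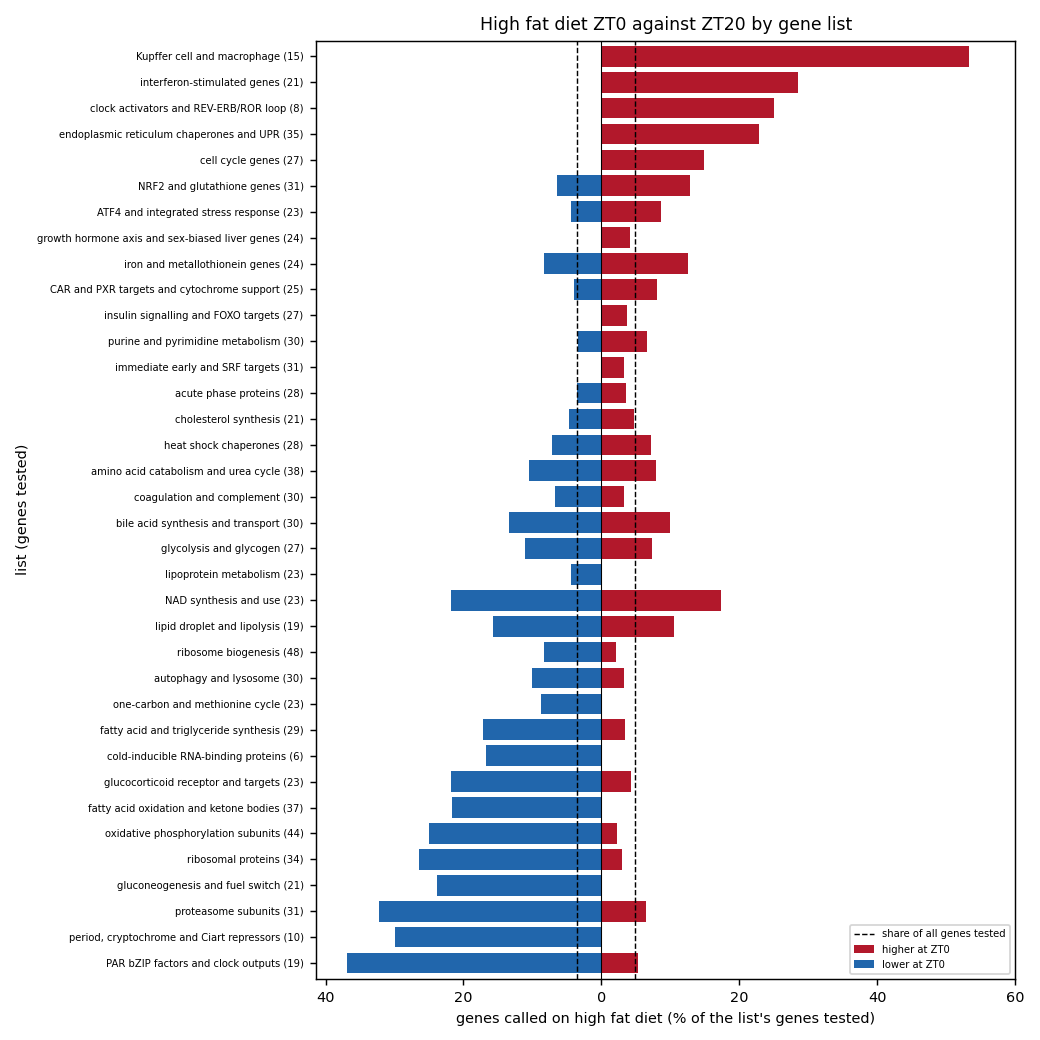
Share of each list's tested genes called higher (red, to the right) or lower (blue, to the left) at ZT0 on high fat diet, with the number tested in brackets; dashed lines mark the shares over all genes tested, 4.82% and 3.55%. The macrophage list, with 8 of 15 higher, lies at the top, and the clock output list, with 7 of 19 lower, at the bottom.

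Small nucleolar RNAs were looked at after their values were seen. Snord118, the U8 RNA of ribosome maturation, had the largest fall of all called genes, from 9.06, 8.84 and 8.26 to 6.55, 6.17 and 6.57 (-2.29 ± 0.67, 4.89-fold, adjusted p = 0.0316). Its groups did not overlap, yet it lost its call without any of the 3 ZT0 arrays or replicates 1 and 2 of ZT20, at an adjusted p from 0.0571 to 0.118. Over all genes tested 3.55% were lower and 4.82% higher on high fat diet, with a median step of 0.05. On chow 1.54% were lower, with a median of 0.02. Of 43 small nucleolar RNAs tested, 7 were lower and 0 higher, with a median step of -0.36, and on chow 2 were lower with a median of -0.26. Snord15b (-0.87 ± 0.18), Snora33 (-1.04 ± 0.32) and Snora73a (-0.91 ± 0.29) were among them, and 1 array left out ended the calls of Snora33 (any ZT0 array or ZT20 replicate 1 or 2, up to 0.145) and Snora73a (ZT0 replicate 1 or 2 or ZT20 replicate 1 or 2, up to 0.183). Other large falls were of Etfbkmt, a mitochondrial methyltransferase (-1.25 ± 0.23), Tmem14c, a heme synthesis factor (10.36, 10.40 and 10.34 against 9.23, 9.23 and 9.37, -1.09 ± 0.16, adjusted p = 0.000161), the ganglioside synthase St3gal5 (-1.01 ± 0.17), the glutamate transporter Slc17a8 (-1.13 ± 0.31) and Chchd1 (-0.87 ± 0.17). The transcription factor Hhex (-0.99 ± 0.31, adjusted p = 0.0469) lost its call without any one of the 6 arrays, at an adjusted p up to 0.155, and Slc17a8 without replicate 3 of ZT0 or replicates 2 and 3 of ZT20 (0.134, 0.0520 and 0.0993).

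The same step on chow, in 6 other arrays, called 691 genes higher (4.95%) and 215 lower (1.54%). That total of 906 became 203 without replicate 3 of chow ZT20, 220 and 279 without replicates 3 and 2 of chow ZT0 and 104 in a fit to the step's arrays alone, and the overlaps that follow rest on the full set of arrays. Of the 673 genes higher on high fat diet 18.6% were also higher on chow, and these 125 genes were 18.1% of the chow list. The 54 genes lower on both diets were 10.9% of the 495 and 25.1% of the 215, while 3 genes were higher on high fat diet and lower on chow and 1 the reverse. Of the 1168 called genes 936 had a chow step of the same sign. That share was not counted over all genes tested, so the 936 only describe the called genes. The difference between the diets' steps itself passed for 44 genes (0.315%), of which 19 had the more positive and 25 the more negative step on high fat diet; 23 of the 44 were called on high fat diet. The count of 44 became 9 without replicate 2 of high fat ZT20, 18 without replicate 2 of high fat ZT0, and 22 and 24 without replicates 1 and 3 of high fat ZT20. It became 11 and 16 without replicates 2 and 3 of chow ZT0, 22 and 20 without replicates 1 and 3 of chow ZT20, and 83 without replicate 1 of chow ZT0.

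Clock genes led the differences. For Nr1d2 the steps had opposite signs, 1.25 on high fat diet and -0.87 on chow, where arrays read 8.34, 8.82 and 8.20 at ZT20 and 7.20, 7.46 and 8.11 at ZT0 (difference 2.12 ± 0.24, adjusted p = 6.99e-06). Dbp also turned, with 0.70 against -1.05 and chow arrays of 7.25, 7.14 and 6.96 at ZT20 and 6.17, 6.07 and 5.96 at ZT0 (difference 1.74 ± 0.24, adjusted p = 0.000272). Its lowest mean of the day was 6.62 at ZT20 on high fat diet and 6.07 at ZT0 on chow. Nr1d1 rose on each diet, by 3.25 and by 1.36, with chow arrays of 7.22, 7.74 and 9.04 at ZT0 (difference 1.88 ± 0.37, adjusted p = 0.0200). That difference missed the threshold without replicate 1 of high fat ZT20 (adjusted p = 0.0599), replicate 2 of chow ZT0 (0.0660) or replicate 1 of chow ZT20 (0.0579). Per3, with -0.20 on high fat diet, fell by 1.41 on chow (difference 1.21 ± 0.20, adjusted p = 0.00403), while Per1, Cry1 and Usp2 fell on each diet and their differences did not pass (0.77 ± 0.29, -0.33 ± 0.17 and -0.01 ± 0.30).

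Among genes outside the clock lists, Ppard, the fatty acid receptor PPAR delta, read 9.38, 10.07 and 9.79 at ZT20 and 9.10, 9.34 and 9.18 at ZT0 on high fat diet (-0.54 ± 0.15), and 9.32, 8.94 and 9.07 and then 9.70, 10.22 and 9.66 on chow (0.75 ± 0.15). Its call on high fat diet did not hold without replicate 1 or 3 of ZT0 or replicate 2 or 3 of ZT20, at an adjusted p up to 0.135. Arrays of the 2 times did not overlap on either diet (difference -1.29 ± 0.22, adjusted p = 0.00403). Rap1gap2, a GTPase activator for RAP1, rose by 0.41 on high fat diet and fell by 0.38 on chow (difference 0.79 ± 0.12, adjusted p = 0.00161), and the potassium channel Kcna2 gave 0.72 and 0.01. The stem cell receptor Lgr5 gave 0.34 on high fat diet and 1.16 on chow, Tmem39a 0.22 and 1.11, and Ficd, an enzyme that modifies BiP, -0.19 and 0.72. Adjusted p for the difference was 0.0336 for Kcna2, 0.0289 for Lgr5, 0.0182 for Tmem39a and 0.00701 for Ficd. Without 1 array the differences of Kcna2 (up to 0.0861), Lgr5 (up to 0.0797) and Tmem39a (up to 0.0660) did not pass. In a fit to the 12 arrays of the steps alone 1 gene passed for the difference, against 44 with all 36 arrays.

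**Figure D5:**
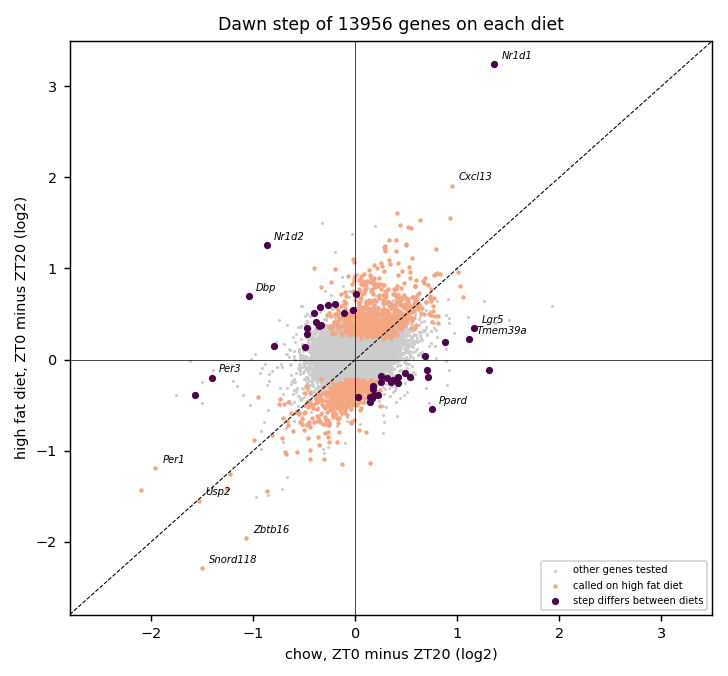
Step from ZT20 to ZT0 of 13956 genes on chow (horizontal) and on high fat diet (vertical), in log2 units, with the line of equal steps dashed. Orange points were called on high fat diet and purple points differed between the diets; Nr1d2 and Dbp lie above 0 on high fat diet and below 0 on chow.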

How the data were processed

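Deposited values were one linear intensity per probe set and array, made by the authors with Affymetrix Expression Console 1.1.1 and PLIER 2.0, per the submitters' processing notes. The sources used here do not state how background and array scale were handled. The values hold 35556 probe sets; those paired with a single gene were kept, symbols were updated by gene identifier to RefSeq (GRCm38.p6), and the brightest probe set stood for each gene. Genes with a mean log2(intensity + 16) above the 30th percentile (6.11) left 13956.

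Differences were fitted with limma 3.58.1 in R 4.3.3 (lmFit and eBayes) as 12 group means over all 36 arrays, with 24 residual degrees of freedom, and p-values were Benjamini-Hochberg adjusted over all genes. Replicate numbers did not pair samples (correlations of deviations between ZT0 and ZT20 of -0.18, -0.52 and -0.47). No pair of arrays held identical values. The code was tested on simulated data. Alternatives changed scaling, filter, probe set rule, offset, variance model, arrays used and threshold.

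Members, the 35 gene lists and 11 marker lists were chosen with earlier results of these data known, and no list was tested as a set. Genes named were the 20 highest and 20 lowest called steps whose arrays did not overlap, every tested member of the 3 clock lists, up to 5 called genes with the smallest p per list (the member with the smallest p where none passed), 8 diet differences in each direction and every called marker. Other members of a list are named where they complete its count. Precision is limited by 3 arrays per group.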

Additional observations from a re-analysis of the deposited data

Results flagged for a closer look

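Of the genes named for a difference between the diets, 16 had a step from ZT20 to ZT0 that differed between high fat diet and chow by the interaction term of the limma fit. Values are the high fat step minus the chow step on the log2 scale. More positive on high fat diet were Nr1d2 (2.12, adjusted p = 6.99e-06), Nr1d1 (1.88, adjusted p = 0.0200), Dbp (1.74), Per3 (1.21), Rap1gap2 (0.79), the phosphatase Ubash3a (0.76), Kcna2 (0.71) and the antiproliferative Tob1 (0.62). More negative were Ppard (-1.29), Ficd (-0.90), Tmem39a (-0.89), Lgr5 (-0.82), the junction protein Tjp3 (-0.73), the ubiquitin ligase Dtx4 (-0.68), the phosphatase subunit Ppp2r5b (-0.60) and Pm20d2 (-0.58). Of these 16, Ubash3a, Tob1, Per3, Ficd, Tmem39a, Lgr5, Tjp3 and Dtx4 did not pass the test within high fat diet alone. Replicate 2 of high fat ZT20 decided 8 of the differences, which did not pass without it. Replicate 2 of chow ZT0 decided 7 and replicate 3 of chow ZT0 5, while replicate 1 of high fat ZT20 and replicate 2 of high fat ZT0 decided 4 each. Replicate 1 of chow ZT20 decided 3, and replicate 3 of chow ZT20 and replicate 1 of high fat ZT0 2 each.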

How the results depend on the processing

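Of 160 named genes called on high fat diet, 40 kept their call under every alternative that included them. The other 120 lost it under at least 1, and 1 of these reversed. Each gene had 20 alternatives, or 1 fewer for 8 of the 160, which lie below the stricter intensity filter. An adjusted p under 0.01 and a minimum of 1.5-fold were among the alternatives. A called gene with a higher adjusted p or a smaller step loses its call there by definition. The 120 thus do not measure dependence on processing alone. Of the 16 differences between the diets, 1 passed throughout. The main counts were 673 higher and 495 lower (31 and 15 by at least 2-fold), 906 on chow and 44 for the diet difference. Quantile normalization gave 986 lower and 85 differences. Median centring gave 170 higher, 1128 lower, 19 and 27 by 2-fold and 618 differences. Other changed counts were 24 differences without the intensity filter, 17 higher by 2-fold with the larger of the offsets tried, and 1801 higher and 174 differences with array weights. The arrays of the step alone gave 330 higher, 165 lower, 104 on chow and 1 difference. An adjusted p under 0.01 left 127 higher, 166 lower, 20 higher by 2-fold, 214 on chow and 6 differences, and a minimum of 1.5-fold left 200 higher, 78 lower and 160 on chow. Leaving out 1 array gave 128 to 707 higher, 249 to 413 lower, 11 to 47 higher and 10 to 19 lower by 2-fold, 203 to 1303 on chow and 9 to 83 differences. With the replicate number as a replicate block the counts were 700 higher and 517 lower, 31 and 15 by 2-fold, 922 on chow and 46 differences, and the numbers did not pair the samples. The cause of these changes was not tested.

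Directions turned for genes that did not pass the test, and for Dnaja1, which did. Dnaja1 gave -0.049 with the mean of its probe sets. Median centring gave -0.018 for Clock and for Leo1, -0.066 for Cys1, -0.049 for Fbxl21, -0.085 for Hlf and -0.018 for Trem2, quantile normalization -0.067 for Cys1, -0.050 for Fbxl21 and -0.018 for Trem2, and array weights 0.027 for Csnk1d. Leaving out 1 array gave -0.142 to 0.031 for Arntl, -0.833 to 0.006 for Avpr1a, -0.105 to 0.511 for Cd163, -0.265 to 0.226 for Ciart, -0.197 to 0.015 for Cry2, -0.095 to 0.011 for Csnk1d, -0.054 to 0.176 for Cys1, -0.050 to 0.097 for Hlf, -0.025 to 0.213 for Leo1 and -0.014 to 1.349 for Rgs16.

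With 3 arrays per group and no counts behind the intensities, small steps such as those of most called genes are uncertain. An unadjusted p under 0.05 in the limma fit was reached by 3429 of the 13956 genes tested, and 1168 passed after adjustment. Dim genes are bounded by the offset, which shrinks their steps.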
